A study of Mus musculus with 6 samples.

Results

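The microRNAs (miRNAs) of wild-type mouse heart cardiomyocytes were compared between the embryo at e13.5, dated in days of gestation, and the adult. The comparison used 3 of the 6 small RNA libraries of the series, namely the 1 wild-type e13.5 library and the 2 wild-type adult libraries. The other 3, from animals with the genotype LncSync-/-, were not used. All animals were of the C57BL/6 strain, the wild-type groups carried no labelled allele or treatment, and the labels give no age for the adults. Of the 3208 rows of the deposited count table, the 1974 that name mature miRNAs were taken, and 1952 remained after rows that hold the same reads were merged. Mature counts totalled 17933518 and 16794840 in adult replicates 1 and 2 and 8944552 at e13.5, and 897, 768 and 912 miRNAs had at least 1 count in these libraries. The labels name the adult libraries as replicates without stating whether each is its own animal, so the p-values reflect differences among libraries that may be only technical. They also do not say how the cells were isolated at each stage, or whether the stages shared a day of isolation or of library preparation, so stage cannot be told apart from any such difference.

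A miRNA is a short RNA cut from either arm of a hairpin precursor, the 5p or the 3p arm, and loaded into an Argonaute protein, where it represses mRNAs that pair with it. Pairing rests mainly on the seed, bases 2 to 8 counted from the 5′ end, so miRNAs with a common seed are grouped as a family. Heart muscle is known for a small set of abundant muscle miRNAs, miR-1, miR-133, miR-208 and miR-499, some of which lie within myosin heavy chain genes. In the embryo the heart grows by division of its cardiomyocytes, whereas adult cardiomyocytes seldom divide and grow in size.

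The sequences below are those on which the main differences turn, as given by RefSeq for GRCm38.p6, 5′ to 3′, with the seed in capitals. The table of sequences matched 1666 of the 1952 miRNAs. These held 49.78% and 45.27% of mature counts in adult replicates 1 and 2 and 45.2% at e13.5. miR-1a-3p, miR-133a-3p and miR-143-3p were not among them. The miR-29 family, whose known targets include collagen mRNAs, is shown because every tested member was far lower at e13.5.
miR-29a-3p: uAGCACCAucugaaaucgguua
miR-29b-3p: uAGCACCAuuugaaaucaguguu
miR-29c-3p: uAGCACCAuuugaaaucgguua
The miR-15/16 family, repressors of cell-cycle genes, is shown because members encoded on different chromosomes were lower at e13.5 together, while miR-322-5p of the same seed differed much less.
miR-15a-5p: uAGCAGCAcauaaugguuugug
miR-16-5p: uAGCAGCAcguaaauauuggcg
miR-195a-5p: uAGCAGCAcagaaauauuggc
miR-497a-5p: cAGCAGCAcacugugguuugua
miR-322-5p: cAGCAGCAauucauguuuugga
The next 3 have a common seed but moved in opposite directions.
miR-125a-5p: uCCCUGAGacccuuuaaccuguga
miR-125b-5p: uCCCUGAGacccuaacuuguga
miR-351-5p: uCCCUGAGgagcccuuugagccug
A further 3 are from the miR-290 and miR-302 clusters, known from pluripotent cells, and had almost no counts in adults.
miR-302b-3p: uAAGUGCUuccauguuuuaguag
miR-302d-3p: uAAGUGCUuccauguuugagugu
miR-294-3p: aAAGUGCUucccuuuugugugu
The last 5 are the miRNAs of the alpha and beta myosin heavy chain genes and the miRNAs with a very large rise at e13.5.
miR-208a-3p: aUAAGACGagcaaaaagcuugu
miR-208b-3p: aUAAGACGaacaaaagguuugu
miR-542-3p: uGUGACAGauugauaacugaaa
miR-541-5p: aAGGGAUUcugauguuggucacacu
miR-21a-5p: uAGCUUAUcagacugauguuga

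The most abundant miRNAs differed by stage. In adults the list was led by miR-133a-3p, at 15.27% and 16.58% of mature counts in replicates 1 and 2, followed by miR-1a-3p at 14.53% and 15.11%. At e13.5 miR-133a-3p held 0.1925% (Wilson 95% interval 0.18968 to 0.19542), whereas miR-1a-3p still held between 13.973% and 14.019% (Wilson 95% interval). The leading species at e13.5 was miR-143-3p, known from smooth muscle and the early heart, at 34.97% (34.944 to 35.006), against 6.576% and 11.05% in adults. It was followed by miR-21a-5p, a miRNA abundant in many dividing and stressed cells, at 15.15% (15.129 to 15.176), against 0.8358% and 0.5498%. The intervals cover counting error only.

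A few miRNAs took more of the e13.5 library than of either adult library. The 10 most abundant held 63.11% and 67.21% of counts in adults and 80.89% at e13.5, and 50% of counts came from 6 and 5 miRNAs in adults and from 2 at e13.5. The number needed for 90% of counts was 33 and 29 in adults and 26 at e13.5, so the lower part of the ranking differed less. Since counts are shares of a library, a miRNA can be lower in share because others are higher.

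**Figure D1:**
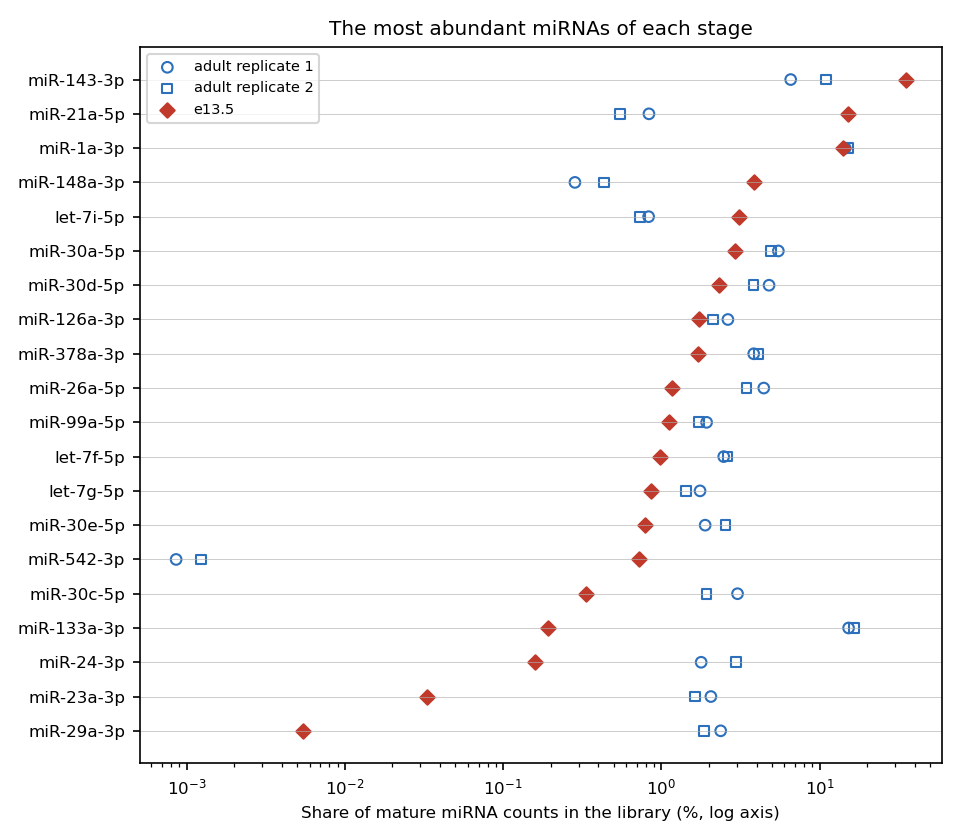
Share of mature miRNA counts (%, log axis) of the 15 most abundant miRNAs of each stage, with a circle and a square for the 2 adult libraries and a diamond for the e13.5 library, each point 1 library. miR-1a-3p is at nearly the same share in all 3 libraries, and miR-133a-3p, miR-23a-3p and miR-29a-3p are far lower at e13.5.

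Of 698 miRNAs with enough counts to test, 217 were higher and 206 lower at e13.5, and 275 did not pass the threshold (edgeR quasi-likelihood test, Benjamini-Hochberg adjusted p under 0.05). That is 60.6% of those tested, 31.1% higher and 29.5% lower, and at an unadjusted p under 0.05 there were 449. The counts of called members in each list below are to be read against these shares. A miRNA with enough counts in only 1 stage was favoured to be higher in that stage, in either direction. The list counts thus describe the tested members alone. Levels are given as CPM, counts per 1000000 mature counts, scaled by the trimmed mean of M values (TMM), and differences as log2 folds of e13.5 over adult. The median log2 fold over all tested miRNAs was −0.44. It was 0.13 when library totals alone set the scale and 0.14 with median-of-ratios factors, and the share of calls that were higher moved from 51.3% to 61.0% and 60.8%. The spread in the test came from the 2 adult libraries alone, with 1 residual degree of freedom, and the e13.5 library was assumed to vary like them. edgeR gave every miRNA the spread of the trend, so the smallest adjusted p values rest on that choice. The smallest was 3.46e-74, and 4.11e-08 under an estimate of the spread that lets miRNAs vary.

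The stage differences were large against the difference between the adult replicates. Among 144 miRNAs with at least 100 CPM in adults, the median absolute log2 difference between adult replicates was 0.26 and none differed by more than 4-fold. Between the stages the median was 2.57, and 82 of the 144 differed by more than 4-fold. In a count that needs no test, 450 of the tested miRNAs had a fitted fold of at least 4, 221 of them higher and 229 lower at e13.5.

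**Figure D2:**
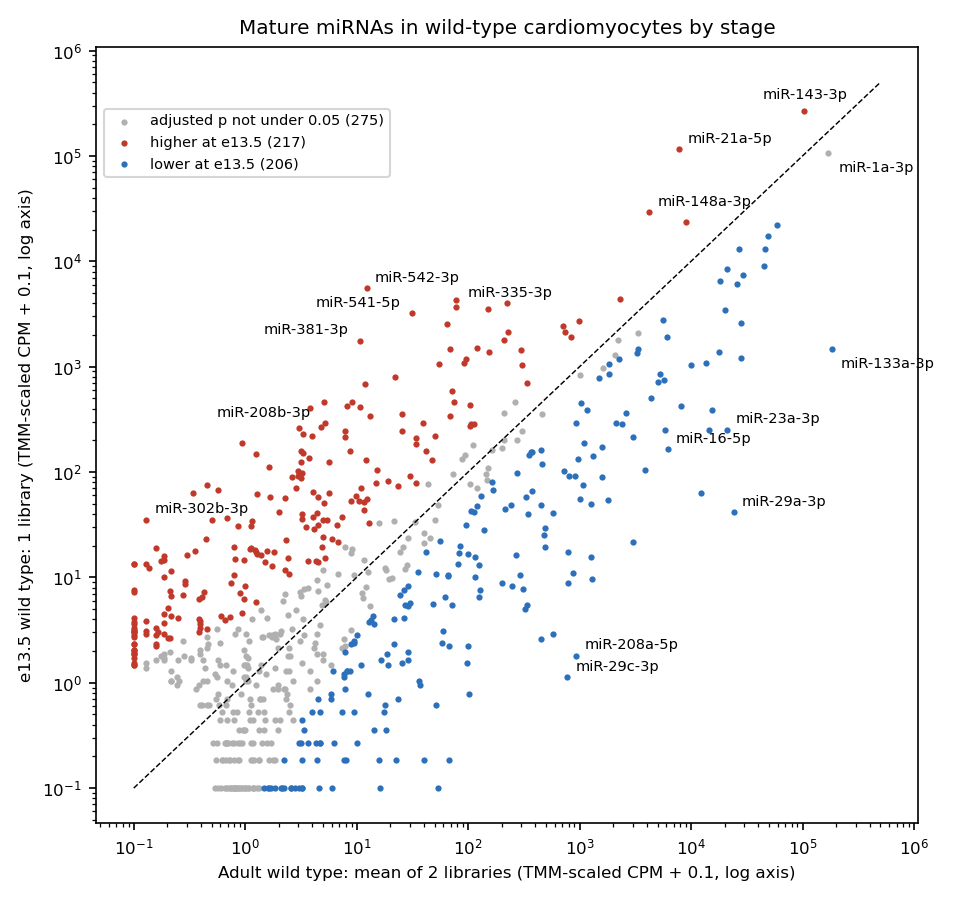
Level of each tested miRNA in TMM-scaled CPM plus 0.1 on log axes, the adult mean of 2 libraries across and the single e13.5 library upwards, with red for the 217 higher, blue for the 206 lower and grey for the 275 past no threshold. The dashed line marks equal levels, and miR-542-3p lies far above it, miR-29a-3p and miR-133a-3p far below.

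The muscle miRNAs, taken as the check of the labelled cell type, were present at both stages. Of the 18 muscle rows 16 were detected and 11 tested. Of those 11, 1 was higher and 9 were lower at e13.5, with a median log2 fold of −3.32 against −0.44 over all tested miRNAs. They held 31.62% and 33.37% of adult counts and 14.62% at e13.5. Without the leading miRNA of each stage, miR-133a-3p and miR-143-3p, in either the sum or the total, the muscle miRNAs held 22.06% of adult counts (mean of 2) and 22.25% at e13.5.

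The miR-1 and miR-133 families, encoded side by side and transcribed together, did not keep their ratio. miR-133a-3p was at 158900 and 209000 CPM in adults and 1469 at e13.5, a log2 fold of −6.97 (SE 0.48, adjusted p = 1.03e-39 by edgeR). miR-1a-3p was at 151200 and 190400 CPM in adults and 106800 at e13.5, a log2 fold of −0.68 (SE 0.34, adjusted p = 0.0719 by edgeR) that did not pass, though limma-voom called it. Both adult libraries were above the e13.5 library for either miRNA. The hairpins Mir1a-1 (chr2:180389048-180389124) and Mir133a-2 (chr2:180398379-180398482) lie within the same stretch of GRCm38. Other hairpins of miR-1a and miR-133a were not placed here, so the levels cannot be assigned to this locus alone. A further pair, miR-206 and miR-133b of chr1, was also low at e13.5. miR-133b-3p stood at 11610 and 13180 CPM in adults and 63.2 at e13.5, a log2 fold of −7.62 (SE 0.51). miR-206-3p, best known from skeletal muscle, stood at 37.8 and 20.1 CPM in adults and 1.88 at e13.5.

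The miRNAs inside myosin genes were divided. miR-208b-3p, within an intron of Myh7, the beta myosin heavy chain gene of the fetal mouse heart (Mir208b, chr14:54975700-54975776), was at 3.89 and 5.48 CPM in adults and 264.5 at e13.5. Its log2 fold was 5.82 (SE 0.51, adjusted p = 5.73e-27 by edgeR), and it was the muscle miRNA that was higher at e13.5. miR-208a, within an intron of Myh6, the alpha chain gene of the adult mouse heart (Mir208a, chr14:54949060-54949142), differed by arm. Its 5p arm fell from 905.5 and 965.8 CPM in adults to 1.71 at e13.5, a log2 fold of −9.09 (SE 0.63). Its 3p arm, miR-208a-3p, stood at 62.9 and 178.1 CPM in adults and 47.1 at e13.5, a log2 fold of −1.36 (SE 0.50, adjusted p = 0.0136 by edgeR). miR-499-5p, within an intron of Myh7b (Mir499, chr2:155622880-155622958), stood at 5068 and 6142 CPM in adults and 2785 at e13.5, a log2 fold of −1.01 (SE 0.36, adjusted p = 0.00997 by edgeR). Neither of these last calls held with library totals, with median-of-ratios factors or in DESeq2, where 6 muscle miRNAs were called lower.

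Among miRNAs past the threshold with a mean of at least 100 CPM over the stages, the 2 largest falls at e13.5 were in miR-29. All 7 tested miR-29 arms were lower, with a median log2 fold of −6.07, and together they held 2.445% and 1.966% of adult counts and 0.006339% at e13.5. miR-29a-3p stood at 24700 and 23540 CPM in adults and 41.7 at e13.5, a log2 fold of −9.18 (SE 0.54, adjusted p = 2.01e-51 by edgeR). miR-29c-3p stood at 531.1 and 1013 CPM in adults and 1.02 at e13.5, a log2 fold of −9.55 (SE 0.66). miR-29b-3p stood at 75.6 and 120.5 CPM in adults and 1.45 at e13.5, a log2 fold of −6.07 (SE 0.72). The family is encoded at chr6 (Mir29a and Mir29b-1) and chr1 (Mir29b-2 and Mir29c), and arms of both loci were lower. The 5p arm miR-29b-2-5p stood at 39.9 and 33.0 CPM in adults and 0.938 at e13.5. For miR-29a-5p, with 473 adult counts and 1 count at e13.5, the adult level was 181-fold higher (exact 95% counting interval 32.4 to 7180). It passed the count filter only through adults, as did miR-29b-1-5p, with 307 adult counts and 2 at e13.5. The filter favoured the direction of both.

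Of 12 tested members of the miR-15/16 family 6 were lower, 2 higher and 4 did not pass, with a median log2 fold of −2.81 (−1.74 with the member at 0 counts set to its bound). miR-195a-5p, linked to the postnatal arrest of cardiomyocyte division, stood at 565.0 and 584.6 CPM in adults and 2.81 at e13.5, a log2 fold of −7.67 (SE 0.61, adjusted p = 2.64e-31 by edgeR). Its neighbour on chr11, miR-497a-5p, stood at 434.9 and 457.9 CPM in adults and 2.47 at e13.5, a log2 fold of −7.49 (SE 0.62). The most abundant member, miR-16-5p, encoded on chr14 and chr3, fell from 5866 and 6470 CPM to 164.4, a log2 fold of −5.23 (SE 0.46). The 2 members that were higher at e13.5 were 3p arms with another seed. miR-16-1-3p stood at 3.77 and 4.13 CPM in adults and 64.8 at e13.5, and miR-15b-3p at 12.1 and 10.7 CPM and 43.6.

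The let-7 family, which rises as cells differentiate in many tissues, was mostly lower at e13.5 but not as a whole. Of 20 tested arms of let-7 and miR-98, 14 were lower and 2 higher, with a median log2 fold of −1.995. Arms that passed the count filter only through adults, such as let-7g-3p with 128 adult counts and 2 at e13.5, were favoured to be lower. let-7f-5p, the most abundant member in adults, stood at 25810 and 33020 CPM there and 7435 at e13.5, a log2 fold of −1.98 (SE 0.37). let-7i-5p went the other way, from 8653 and 9220 CPM to 23650, a log2 fold of 1.40 (SE 0.32, adjusted p = 5.09e-05 by edgeR). let-7e-5p stood at 326.5 and 287.1 CPM in adults and 1034 at e13.5, a log2 fold of 1.75 (SE 0.37). The sum over the 9 mature miRNAs with the let-7 seed GAGGUAG had a log2 fold of −0.70 (SE 0.28, adjusted p = 0.0544 by edgeR). Members of this family differ at few bases and may share reads, so single members are less certain.

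Other abundant adult families were lower as well. All 5 miR-378 rows, miRNAs linked to fatty acid metabolism, were lower, with a median log2 fold of −3.65, and miR-378a-3p stood at 39930 and 51930 CPM in adults and 13030 at e13.5. Of 12 miR-30 arms 10 were lower and 2 did not pass, with a median of −1.79. miR-30c-5p fell from 31560 and 24380 CPM to 2568, a log2 fold of −3.45 (SE 0.40), while miR-30a-5p fell from 57150 and 61970 CPM to 22190, a log2 fold of −1.42 (SE 0.36) that DESeq2 did not call. With library totals or median-of-ratios factors 8 of the 12 were called lower, and 7 in DESeq2.

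The 2 clusters of miR-23, miR-27 and miR-24, on chr8 and chr13, were lower together. Of 11 tested arms 10 were lower and 1 did not pass, with a median log2 fold of −4.54. Among the lower arms, miR-23a-5p had 101 adult counts and 0 at e13.5, and miR-23b-5p had 189 and 2. Both passed the count filter only through adults, which favoured that direction. miR-23a-3p stood at 21410 and 20650 CPM in adults and 252.7 at e13.5, a log2 fold of −6.38 (SE 0.48). miR-24-3p, made by both clusters, stood at 18580 and 37580 CPM in adults and 1220 at e13.5. Of the chr13 cluster, miR-27b-3p stood at 17230 and 23460 CPM in adults and 3413 at e13.5, a log2 fold of −2.58 (SE 0.39). All 4 arms of miR-221 and miR-222, 2 neighbours on chrX, were also lower, led by miR-221-3p at 1463 and 1112 CPM in adults and 9.64 at e13.5. DESeq2 called 3 of these 4, and so did limma-voom, each without miR-222-5p.

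**Figure D3:**
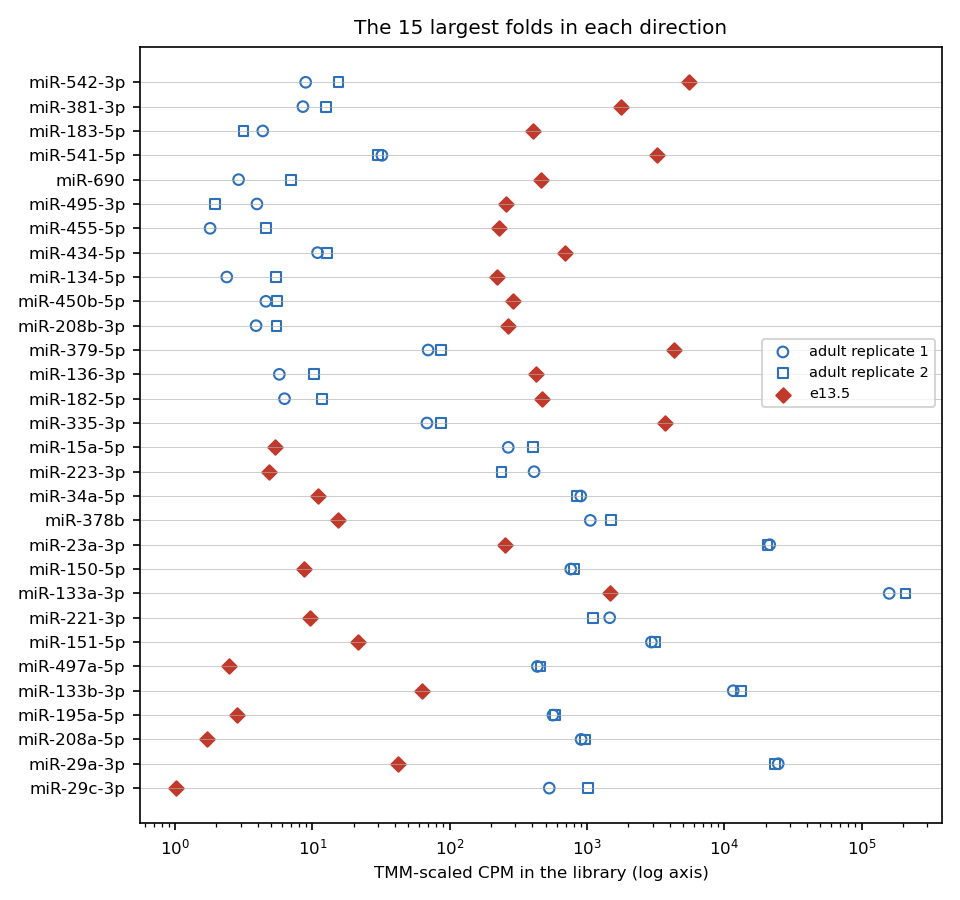
TMM-scaled CPM (log axis) in each library for the 15 largest folds in each direction among miRNAs past the threshold with a mean of at least 100 CPM over the stages, with a circle and a square for the 2 adult libraries and a diamond for e13.5. In every one of these miRNAs both adult libraries lie on the same side of the e13.5 library, far from it.

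The imprinted Dlk1-Dio3 region of chr12, whose miRNAs are made from the maternal copy and are abundant in embryo and placenta, had the most miRNAs higher at e13.5 of the 30 lists. Of its rows 91 were detected and 75 were tested. Of those, 61 were higher and 1 was lower, with a median log2 fold of 4.32 (4.01 with members at 0 counts set to their bounds). Together they held 0.05077% and 0.0425% of adult counts and 2.327% at e13.5. The single lower member, miR-666-3p, had 11 and 32 adult counts and none at e13.5, at least 5.5-fold lower against 3 counts, and was not called with library totals, median-of-ratios factors or DESeq2. Members that passed the filter on low counts only through the e13.5 library had to be higher there, so these counts describe the tested members alone.

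Within the region miR-379-5p was the most abundant at e13.5, at 69.6 and 86.2 CPM in adults and 4324 at e13.5, a log2 fold of 5.795 (SE 0.37, adjusted p = 1.06e-44 by edgeR). miR-541-5p stood at 32.1 and 30.1 CPM in adults and 3241 at e13.5, a log2 fold of 6.70 (SE 0.39). miR-381-3p stood at 8.53 and 12.6 CPM in adults and 1767 at e13.5, a log2 fold of 7.39 (SE 0.43). Both annotated stretches of the region took part. The counts by stretch cover tested arms with a sequence in the table. From Mir770 to Mir136 (chr12:109563692-109595388) 14 of 20 such arms were higher, and from Mir379 to Mir3072 (chr12:109709060-109747960) 41 of 47.

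Other imprinted loci had the same direction. miR-483, in an intron of the fetal growth factor gene Igf2 on chr7, was higher at e13.5 in both arms, with miR-483-5p at 0.406 and 1.28 CPM in adults and 190.1 at e13.5, a log2 fold of 7.85 (SE 0.59). miR-675, in an exon of H19, the neighbouring long non-coding RNA, was nearly missing from adults. miR-675-5p had 0 adult counts and 41 counts at e13.5, at least 35.6-fold higher against 3 counts over the adult group. miR-675-3p had 3 adult counts and 118 at e13.5, a 103-fold higher TMM-scaled level (exact 95% counting interval 34.2 to 504). Both miR-675 arms passed the count filter only through e13.5, so their direction was fixed by the filter. miR-335-3p, in an intron of the paternally expressed gene Mest (chr6:30741299-30741396), stood at 68.3 and 85.9 CPM in adults and 3679 at e13.5, a log2 fold of 5.58 (SE 0.37). The miR-297, miR-466, miR-467 and miR-669 families, known from the Sfmbt2 gene, were taken by name and their positions were not checked. Their rows can share reads. Of 69 such rows 34 were tested, and 19 of those were higher and 15 did not pass. Members that passed the count filter only through e13.5, such as miR-466f-5p with 0 adult counts and 32 at e13.5, had to be higher there, so the count describes the tested members only.

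The X-linked miR-322 to miR-450b cluster (chrX:53047997-53054349) held the largest rise among miRNAs past the threshold with a mean of at least 100 CPM over the stages. miR-542-3p stood at 8.93 and 15.5 CPM in adults and 5519 at e13.5, a log2 fold of 8.83 (SE 0.42, adjusted p = 3.46e-74 by edgeR). Of 13 tested members 7 were higher, 1 was lower and 5 did not pass, with a median of 2.11. miR-351-5p stood at 216.8 and 199.9 CPM in adults and 1798 at e13.5, a log2 fold of 3.11 (SE 0.36). The lower member was miR-322-5p, of the miR-15/16 seed shown above, at 339.2 and 365.0 CPM in adults and 144.5 at e13.5, a log2 fold of −1.29 (SE 0.43) that was lost with library totals, median-of-ratios factors and DESeq2. From the same hairpin, miR-322-3p stood at 323.4 and 271.5 CPM in adults and 1432 at e13.5.

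Clusters known from dividing and pluripotent cells were split. In the miR-17~92 cluster (chr14:115043671-115044506), a driver of proliferation, 5 of 10 tested arms were higher and 1 lower, with a median of 1.70. miR-20a-5p stood at 116.2 and 75.1 CPM in adults and 1174 at e13.5, a log2 fold of 3.62 (SE 0.38), and miR-19b-3p stood at 29.2 and 21.5 CPM and 352.4. The lower member, miR-92a-3p, stood at 2327 and 2231 CPM in adults and 1182 at e13.5, a log2 fold of −0.95 (SE 0.37), and was not called with library totals, median-of-ratios factors or DESeq2. In the related clusters of miR-106b with miR-25 and of miR-106a with miR-363, 2 of 11 tested arms were higher, 2 lower and 7 not past, with a median of −0.04 that became 0.53 with the other 2 scalings. Both lower calls, miR-25-3p and miR-93-5p, were lost with library totals, median-of-ratios factors and DESeq2.

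The miR-290 and miR-302 clusters had few reads. Of 28 rows 14 were detected and 12 tested, all through their e13.5 counts, and all 12 were higher, a direction that the filter favoured. Their median log2 fold was 7.99, and 4.96 with the 7 members at 0 adult counts set to their bounds. miR-302b-3p had 1 and 0 counts in adults and 414 at e13.5, a 1080-fold higher TMM-scaled level (exact 95% counting interval 193 to 42700). miR-302d-3p had 8 and 3 counts in adults and 269 at e13.5. miR-294-3p had 0 adult counts and 36 at e13.5, at least 31.3-fold higher. In all, the 2 clusters held 0.01469% of e13.5 counts (Wilson 95% interval 0.013917 to 0.015507).

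In the families of miR-130 with miR-301 and of miR-148 with miR-152, 8 of 14 tested arms were higher and 1 lower, with a median of 2.26. The lower member, miR-130a-3p, was not called with library totals, median-of-ratios factors or DESeq2. miR-148a-3p stood at 2961 and 5490 CPM in adults and 29380 at e13.5, a log2 fold of 2.80 (SE 0.33). miR-218-5p, from introns of the guidance genes Slit2 and Slit3 and known from the forming heart and motor neurons, stood at 189.4 and 257.1 CPM in adults and 4000 at e13.5, a log2 fold of 4.16 (SE 0.35). miR-532-5p, of a cluster in an intron of Clcn5, stood at 184.6 and 115.4 CPM in adults and 3560 at e13.5, a log2 fold of 4.57 (SE 0.36).

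Among miRNAs linked to cardiac stress, 3 of 14 tested arms were higher, 6 lower and 5 not past. Over all tested miRNAs 31.1% were higher and 29.5% lower. miR-21a-5p stood at 8693 and 6930 CPM in adults and 115600 at e13.5, a log2 fold of 3.89 (SE 0.33, adjusted p = 4.08e-28 by edgeR). miR-34a-5p, which acts downstream of p53 and is linked to cardiac ageing, stood at 900.5 and 843.2 CPM in adults and 10.9 at e13.5, a log2 fold of −6.32 (SE 0.54). Its relative miR-34c-5p went the other way, from 9.98 and 5.48 CPM to 245.3. miR-22-3p, a miRNA linked to hypertrophy, stood at 6319 and 13540 CPM in adults and 1047 at e13.5.

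**Figure D4:**
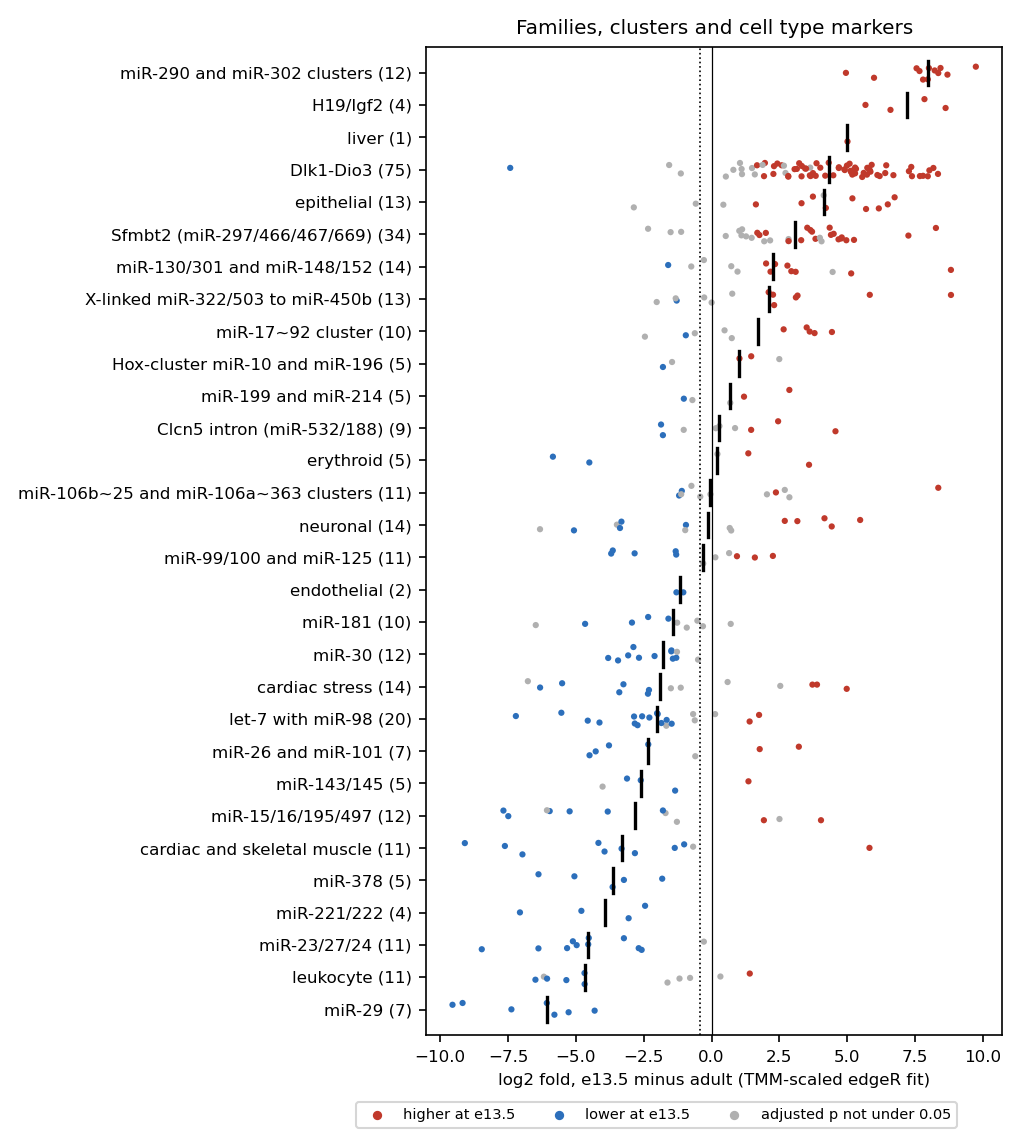
Log2 fold of e13.5 over adult for each tested miRNA of the 30 lists (number tested in brackets), with red for higher at e13.5, blue for lower and grey for those past no threshold, a black tick at the list's median and a dotted line at the median of all tested miRNAs, −0.44. Folds of miRNAs at 0 counts in a stage depend on the prior count, the miR-29 list lies wholly on the lower side and the Dlk1-Dio3 list mostly on the higher side.

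Markers of other cell types moved with stage in several directions. Fewer cells of a type and less RNA per cell cannot be told apart in such bulk libraries. miR-143-3p rose from 68400 and 139300 CPM to 266800, a log2 fold of 1.36 (SE 0.32, adjusted p = 5.88e-05 by edgeR), with the adult replicates themselves well apart. Its usual companion in smooth muscle, miR-145a-5p, fell from 4657 and 5812 CPM to 858.3, a log2 fold of −2.61 (SE 0.40). Of the 5 miR-143 and miR-145 arms 1 was higher, 3 were lower and 1 did not pass, and the lower call of miR-143-5p was lost with library totals, median-of-ratios factors and DESeq2. Of the fibroblast and mesenchymal miRNAs miR-199 and miR-214, 2 of 5 were higher and 1, miR-214-3p, was lower (adjusted p = 0.0497 by edgeR), a call lost in every scaling and tool tried.

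The blood cell markers fell in part. The leukocyte list had a summed level of 2959 and 2712 CPM in adults and 375 at e13.5, and of its 11 tested arms 5 were lower and 1 was higher. miR-150-5p of lymphocytes stood at 761.2 and 804.4 CPM in adults and 8.70 at e13.5, and miR-223-3p of myeloid cells at 411.6 and 238.7 CPM in adults and 4.86 at e13.5. miR-142a-3p, made by all leukocytes, stood at 17.8 and 5.10 CPM in adults and 14.4 at e13.5 and did not pass. The erythroid list, with 2 arms higher, 2 lower and 1 not past of 5 tested, summed to 16340 and 13090 CPM in adults and 570.8 at e13.5. Nearly all of the adult sum was miR-486a-5p, which muscle also expresses and which fell by 5.85 on the log2 scale (SE 0.47). The red cell miRNAs miR-451a and miR-144-3p were higher at e13.5, miR-451a at 110.9 and 114.3 CPM in adults and 288.2, a log2 fold of 1.36 (SE 0.42).

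The endothelial miRNA miR-126a-3p, from the Egfl7 gene, stood at 27420 and 26620 CPM in adults and 13140 at e13.5, a log2 fold of −1.04 (SE 0.35). Both tested miR-126a arms were lower, and neither was called with library totals, median-of-ratios factors or DESeq2. Of 13 tested epithelial arms 9 were higher and none lower by edgeR. DESeq2 and limma-voom also called none lower, as did an unadjusted p under 0.05 in edgeR. Members that passed the count filter only through e13.5, such as miR-200b-5p with 3 adult counts and 21 at e13.5, had to be higher there. The counts thus describe the tested members only. The list had a summed level of 185.9 and 253 CPM in adults and 2127 at e13.5. miR-200b-3p stood at 16.9 and 26.8 CPM in adults and 797.9 at e13.5, a log2 fold of 5.19 (SE 0.42), and miR-183-5p stood at 4.35 and 3.15 CPM and 405.7. The liver miRNA miR-122-5p stood at 1.57 and 0.525 CPM in adults and 34.4 at e13.5.

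Of 14 tested neuronal arms 5 were higher and 4 lower, with a median of −0.14 that became 0.46 with the other 2 scalings. These counts are near the shares over all tested miRNAs, 31.1% higher and 29.5% lower. miR-7a-5p stood at 72.3 and 64.0 CPM in adults and 1469 at e13.5, whereas the neuron-specific miR-124-3p had 10 and 11 counts in adults and 0 at e13.5. The list summed to 1952 and 1937 CPM in adults and 6489 at e13.5. Most of the e13.5 sum was miR-218-5p, described above as known from the forming heart as well as motor neurons. Most of the adult sum was miR-128-3p, at 1520 and 1479 CPM in adults and 780.4 at e13.5, a log2 fold of −0.94 (SE 0.37) whose call was lost with library totals, median-of-ratios factors, DESeq2 and a mean of at least 10 CPM. The part of any of these cell types in the stage differences was not tested.

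Grouping the miRNAs that had a sequence by their seed showed which of these families moved as a unit. Of 496 seed families tested on summed counts, 143 were higher and 136 lower at e13.5, which is 56.2%. Most hold a single miRNA, and of the 84 with more 58 passed. Of 15 seeds with at least 3 tested miRNAs, 7 had members past the threshold in both directions. In the seeds of miR-93-5p, of miR-130a-3p, of miR-25-3p with miR-92a-3p and of miR-99a-5p, these members were the only lower calls. All of these calls were lost with library totals and in DESeq2, and all but that of miR-99a-5p with median-of-ratios factors. The number of divided seeds thus depends on the scaling and the tool. The miR-29 seed AGCACCA fell from 25300 and 24680 CPM in adults to 44.2 at e13.5, a log2 fold of −9.14 (SE 0.45, adjusted p = 3.17e-07 by edgeR), and all 3 members were lower. Of 7 tested miRNAs with the miR-15/16 seed AGCAGCA, 6 were lower.

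Other seeds were divided. Of the lin-4 seed CCCUGAG, miR-125b-5p fell from 19750 and 15670 CPM to 1365 and miR-125a-5p from 5110 and 4980 to 707.4, while miR-351-5p rose as given above. At e13.5 miR-351-5p was thus the most abundant of the 3, and in adults the least. Within the seed AAAGUGC of miR-17 and its relatives 2 of 6 were higher, 1 lower and 3 not past. Of the miR-148 seed CAGUGCA, miR-148a-3p alone rose, and the summed level was higher at e13.5 by 2.19 on the log2 scale (SE 0.32). The miR-21 seed AGCUUAU, nearly all miR-21a-5p, went from 8693 and 6930 CPM to 115600 and was the most abundant seed at e13.5 among miRNAs with a sequence in the table. The miR-30 seed GUAAACA was the most abundant in adults on the same basis, at 108400 and 118500 CPM and 30800 at e13.5. That sum covers miR-30a-5p, miR-30c-5p, miR-30e-5p and miR-384-5p, without miR-30b-5p and miR-30d-5p.

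The arm of a hairpin that gave most reads also differed with stage. Arms were paired by hairpin name, and a name such as miR-9 or miR-199a can stand for more than 1 hairpin. The miR-199a-3p row also holds the merged miR-199b-3p, so the miR-199a share is not that of a single hairpin. For 134 names with at least 100 reads from both arms together in every library, the 5p share was compared. It differed between stages by a median of 4.05 percentage points, and by 0.99 points between the adult replicates. The 5p share differed by more than 20 points in 28 hairpins, against 1 between the adult replicates, and the major arm was another in 21. Among the 21 some e13.5 shares had Wilson 95% intervals that included an even split. These were miR-15b at 48.54% (45.44 to 51.65), miR-181c at 47.7% (43.26 to 52.18) and miR-142a at 45.48% (40.03 to 51.05). In miR-142a the adult replicates were 18.12 points apart. Both arms passed the threshold in 63 hairpins, and in 17 of those they did so in opposite directions.

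In miR-208a the 5p arm gave 93.5% and 84.43% of reads in adults and 3.497% at e13.5 (Wilson 95% interval 2.275 to 5.339). In miR-151 the share fell from 81.98% and 78.98% to 1.005% (0.8889 to 1.136), since miR-151-5p fell by 7.14 on the log2 scale while miR-151-3p rose by 1.52. In miR-195a the share fell from 94.64% and 95.85% to 25.38% (18.68 to 33.5). The 5p share rose in miR-455, from 1.406% and 4.167% to 95.83% (95.02 to 96.51), with miR-455-5p at 1.80 and 4.58 CPM in adults and 229.1 at e13.5 and miR-455-3p at 126.1, 105.3 and 9.98 CPM. In miR-574 it rose from 9.821% and 14.29% to 80.74% (78.22 to 83.03). For each of these hairpins both adult libraries lay on the same side of the e13.5 library. The 5p share of a hairpin is free of library scaling, since both arms are counted in the same library. The calls of single arms are not.

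**Figure D5:**
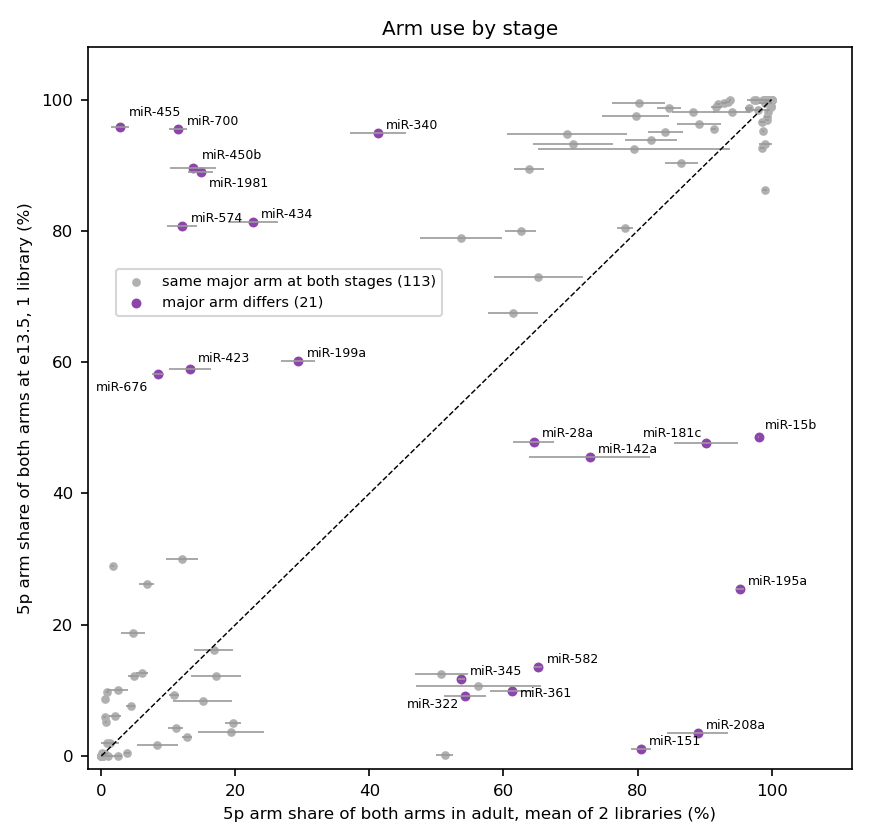
Share of reads from the 5p arm (%) of 134 hairpin names, the mean of the 2 adult libraries across, with a horizontal bar between the 2 adult values, and the e13.5 library upwards. Grey points are the 113 hairpins with the same major arm at both stages, purple points the 21 with another, and the dashed line marks equal shares.

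Only miRNAs with a sequence in the table entered the groups of hairpins no more than 10 kb apart, so some tested arms are absent. Of 15 such groups, 5 had every tested arm that entered past the threshold in the same direction. Those of miR-302 (chr3:127545228-127545807), miR-290 (chr7:3218626-3220841) and miR-182 with miR-183 on chr6 had every tested arm higher at e13.5. For the miR-302 and miR-290 groups the count filter favoured that direction, as given above. The let-7d to let-7a-1 group (chr13:48536012-48538272) had all 6 tested arms lower, and the miR-23b group (chr13:63300484-63301275) all 5. In the miR-23b group miR-23b-5p passed the count filter only through adults, which favoured its direction. Some further groups had calls in a single direction beside arms that did not pass. The miR-23a group on chr8 had 5 of 6 arms lower, and the miR-429 to miR-200b group on chr4 had 4 of 5 higher. The 2 stretches of the Dlk1-Dio3 region had 14 of 20 and 41 of 47 arms higher and 0 lower. The remaining groups were mixed or mostly did not pass. The miR-450b to miR-322 group on chrX had 6 of 11 arms higher and 1 lower. The miR-743 to miR-465 group on chrX had 1 of 7 lower and 6 not past. In the Clcn5 group on chrX, 2 of the 8 arms that entered were higher, 2 lower and 4 not past. miR-532-5p, higher as given above, was not among these arms. The lower calls were lost with library totals, median-of-ratios factors and DESeq2.

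Some miRNAs had no counts in a stage. There were 169 with counts at e13.5 and none in adults, and 218 the other way round, most of them rare. The largest bounds were at least 136-fold higher at e13.5 for miR-6540-5p, with 156 counts there, and at least 210-fold lower for miR-874-3p, with 940 and 706 adult counts. A count of 0 allows up to 0.1673 and 0.1786 CPM in the adult libraries and 0.3354 CPM at e13.5, before TMM scaling. Base composition differed a little between the calls, with a median GC content of 45.45% over 177 miRNAs higher at e13.5 and higher medians over the 179 lower and the 235 not past. Its part in the stage differences was not tested.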

How the data were processed

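Small RNA libraries were made from total RNA of heart cardiomyocytes with the NEXTFLEX Small RNA kit, per the labels' protocols. The values are raw read counts, as the authors deposited them in 1 table with a column for each library. The build named is mm10, per the submitters' processing notes. For the aligner and counter a name is not given in the sources used here. Since molecular identifiers are not mentioned, intervals and floors of 3 counts cover counting error only.

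Mature rows were used. Rows that differed by no more than 1% of their summed counts (minimum sum 20, present in 2 or more libraries) were treated as duplicates and merged. This removed 22 and was chosen after the table was seen. No column belonged to another sample. The quasi-likelihood test of edgeR 4.0.16 (R 4.3.3, two-sided) was run on the 2 adult and 1 e13.5 wild-type libraries after TMM scaling (factors 0.9614, 0.7933 and 1.311) and a filterByExpr minimum of 10 counts. The threshold was 0.05 after Benjamini-Hochberg adjustment over all 698 tested miRNAs. The common biological coefficient of variation was 0.402. The script was tested on simulated data. DESeq2 1.42.0, limma-voom (limma 3.58.1), other scalings, filters and rows were alternatives. Folds against 0 counts are bounds at 3 counts over the group, on TMM-scaled totals, and levels resting on 1 to 3 counts carry exact 95% intervals. The Wilson 95% method gave the intervals of shares. Hairpin positions are from RefSeq for GRCm38.p6, and host genes are from GENCODE M21 on GRCm38.

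Named miRNAs were, in either direction, the 15 with the largest fold that passed and had a mean of at least 100 CPM, the 15 most abundant in each stage, the 4 most abundant members and any defining marker of each of 30 lists, 5 seed families by abundance and by fold, and the 5 hairpins with the largest arm difference in each direction. Some further list members, clusters and the miRNAs at 0 were named after their values were seen. The comparison, the lists and the tests were chosen with earlier results of these data known.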

Additional observations from a re-analysis of the deposited data

How the results depend on the processing

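Of 423 calls, 376 were among the 406 made with median-of-ratios factors, 371 among the 395 with library totals, 406 among the 406 with no filter, 422 among the 439 on unmerged rows, 411 among the 447 of limma-voom and 326 among the 334 of DESeq2, which gave no adjusted p for 95 miRNAs. A fit with adjusted deviances, chosen after seeing the data, shared 412 of 429. No call of the 423 had the opposite direction in any of these 7 fits. A mean of at least 10 CPM left 329 miRNAs and 261 calls, 138 higher and 123 lower, with fewer tested by construction. Hairpin rows gave 124 lower of 360 calls and DESeq2 135 lower, and the cause was not tested. The seed families of more than 1 miRNA, a choice made after seeing the data, gave 58 calls of 84. Without the leading miRNA of each stage the muscle miRNAs held 22.06% of adult and 22.25% of e13.5 counts, as by construction miR-133a-3p left the adult sum and miR-143-3p, 34.97% of the e13.5 counts, left that total. Leaving out each adult replicate gave 445 to 459 miRNAs with a fold of at least 4 and an adult muscle share of 31.62 to 33.37%. It moved the log2 fold of 30 of the named miRNAs (without replicate 1) and of 19 (without replicate 2) by more than its standard error, and none called changed sign. Without replicate 2 miR-208a-3p stood at −0.42, against −1.36 with both, and miR-143-3p at 1.96, against 1.36. Without replicate 1 miR-93-5p stood at −0.67, against −1.20. Then each stage has 1 library, and no test was made. No paired analysis was possible because the e13.5 library carries no replicate number. With 1 e13.5 library, the spread at that stage was not measured.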
